A study of Mus musculus with 58 samples.

Results

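Translational efficiency, the amount of ribosome-protected RNA of a gene relative to its RNA in the same tissue, was compared between 16p11.2 del/+ and wt mice with each animal serving as its own reference. Its members were 14 libraries of 7 animals, out of 58 libraries in the whole series: a footprint (RIBO-seq) library and an RNA-seq library made from the same striatal lysate of each animal. Libraries were taken by assay and animal number, and the footprint and RNA counts were joined over 18411 genes. Animals are named by their footprint libraries as the labels spell them. The del/+ group held animals RIBO-504, RIBO-506 and RIBO-516, which carried 1 copy of the 16p11.2 interval (16p11.2 del/+). The wt group held animals RIBO-498, RIBO-499, RIBO-505 and RIBO-517. All 7 were male, of the strain given as B6129S, and the tissue was striatum. Their labels give no age; mice of experiments without another stated age were littermates of 10 to 14 weeks. A second set of 12 libraries came from 3 del/+ and 3 wt males of the 3g line. In that line Taok2, Sez6l2 and Mvp carry hemi-mutations that introduce premature stop codons. The set was used to ask whether a genotype difference was unlike between the lines. It also gave the footprint to RNA ratio of genes in animals outside the comparison.

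A ribosome that is translating an mRNA shields a short stretch of it from nuclease, and sequencing of the shielded fragments counts ribosomes gene by gene. The footprint count of a gene rises both when there is more mRNA and when each mRNA carries more ribosomes, so it is read against the RNA of the same lysate. A gene whose RNA and footprints fall by the same factor has an unchanged ratio, and a gene whose mRNA is held back from ribosomes has fewer footprints with the same RNA. In whole striatum, which is mostly spiny projection neurons with glia and vessels among them, a difference can come from fewer cells of a type or from less RNA per cell, and these cannot be told apart.

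Footprint libraries held between 357221 and 611890 counted reads and lysate RNA libraries between 15102576 and 17995977, although the labels state at least 130M sequenced reads for each RIBO-seq library. The mean footprint count reached 20 in 3054 of the 15071 genes that could be tested, so that footprints, not RNA, set the precision of the ratio. Genes encoded in the mitochondrion took 29.7% to 41.3% of the footprints. The deepest footprint libraries were those of wt animals RIBO-517 and RIBO-505, while the 3 del/+ libraries held 359056 to 405765 counts and wt animal RIBO-498 held 357221. Spiny neuron markers were abundant in every library, with summed levels of 5063 to 7391 CPM in wt footprints and 5815 to 6775 CPM in del/+ footprints. CPM is the count scaled to a common library size, which was adjusted here by the trimmed mean of M-values.

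Of the 15071 genes tested, 10 (0.0664%) differed in translational efficiency between del/+ and wt at an adjusted p under 0.05 by edgeR's quasi-likelihood test with the animal as a block. The ratio was higher in del/+ for 9 genes, Zfpm1, Zbtb4, Lama1, Kcng1, Hook3, Cdc14b, Trip4, Kcns2 and Dcp1b, and lower for 1, Ski. None of the 10 was called in the RNA comparison, which called 0.133% of 14330 genes, and their RNA differences lay between -0.35 and 0.0043 on the log2 scale. Footprints alone were called for 5 of the 10, Lama1, Kcng1, Zfpm1 and Dcp1b higher and Ski lower, against 0.117% of 5964 genes tested on footprints. The 10 were picked with these same footprint counts, so this is a description and no separate support. Without adjustment 842 genes had a p under 0.05, 292 with a positive and 550 with a negative difference. A second paired fit, limma on the per-animal log2 ratios, called 0 genes at an adjusted p under 0.05. The SEs given below come from the edgeR fit and can be smaller than the spread between animals.

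Zfpm1 encodes a zinc finger cofactor of GATA transcription factors. Its footprint level was 229, 311, 420 and 258 CPM in wt animals RIBO-498, RIBO-499, RIBO-505 and RIBO-517, and 773, 563 and 643 CPM in del/+ animals RIBO-504, RIBO-506 and RIBO-516. Its RNA was at 20.6, 20.7, 22.4 and 20.01 CPM in wt and at 15.7, 11.7 and 22.8 CPM in del/+. Every del/+ animal lay above every wt animal in footprints, whereas RNA overlapped between the groups. The difference in translational efficiency was 1.49 on the log2 scale (SE 0.186, 95% interval 1.13 to 1.86, adjusted p = 1.58e-11).

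Lama1 encodes the alpha-1 chain of laminin, a protein of basement membranes. It had 48, 40, 107 and 96 footprints in the 4 wt animals and 156, 155 and 186 in the 3 del/+ animals, although the deepest libraries were wt. Its RNA was low, between 1.22 and 2.27 CPM in wt and between 1.00 and 1.78 CPM in del/+. The 3 del/+ animals stood above all wt animals in footprints, and the ratio differed by 1.82 (SE 0.308, adjusted p = 1.84e-05).

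Kcng1 encodes a modifying subunit of voltage-gated potassium channels. Footprints of Kcng1 were at 83.7, 72.8, 72.4 and 79.0 CPM in wt and 196, 153 and 202 CPM in del/+. The wt animals were close to one another and the groups did not overlap. RNA ranged from 17.1 to 20.2 CPM in wt and from 14.04 to 15.7 CPM in del/+, and the ratio differed by 1.52 (SE 0.265, adjusted p = 3.42e-05). Kcns2, which encodes another modifying potassium channel subunit, had log2 ratios of 3.76, 2.84, 3.14 and 2.84 in wt and 4.05, 3.89 and 3.88 in del/+, a difference of 0.79 (SE 0.189, adjusted p = 0.0464). The highest wt animal, RIBO-498, was just below the lowest del/+ animal.

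Ski, the gene lower in del/+, encodes a co-repressor of SMAD transcription factors. It had 80, 78, 81 and 103 footprints in wt and 37, 30 and 23 in del/+. Its RNA was between 114 and 154 CPM in wt and between 113 and 162 CPM in del/+. Footprints separated the groups and RNA did not, and the ratio fell by 1.17 (SE 0.229, adjusted p = 0.000873).

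Dcp1b encodes a subunit of the mRNA decapping complex. Its log2 ratio was 3.36, 3.25, 3.78 and 3.23 in wt and 4.21, 4.75 and 4.01 in del/+, without overlap, and differed by 0.91 (SE 0.218, adjusted p = 0.0481). Cdc14b, which encodes a dual-specificity phosphatase, was the least covered of the 10, with 10 to 19 footprints in wt and 24 to 37 in del/+. Its ratio differed by 1.44 (SE 0.324, adjusted p = 0.0197), again without overlap.

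The remaining genes overlapped or nearly did. Zbtb4, a zinc finger repressor that binds methylated DNA, had log2 ratios of 1.80, 1.86, 0.60 and 1.47 in wt and 1.91, 3.37 and 2.21 in del/+, a difference of 1.05 (SE 0.175, adjusted p = 1.41e-05). Animal RIBO-506 stood far above the other del/+ animals, and without it the adjusted p was 0.438. Trip4, a subunit of a transcriptional coactivator complex, differed by 0.83 (SE 0.194, adjusted p = 0.0370), with 105 to 132 footprints in wt and 134 to 247 in del/+. Its log2 ratio in wt animal RIBO-498, 3.52, was above that of del/+ animal RIBO-504, 3.22. Hook3, an adaptor that links cargo to dynein, had log2 ratios from 0.83 to 4.15 in wt and from 3.05 to 3.97 in del/+, so that the wt range enclosed that of del/+. Its fitted difference was 0.81 (SE 0.177, adjusted p = 0.0110), while the per-animal ratios gave a two-sided exact permutation p of 0.514.

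**Figure D1:**
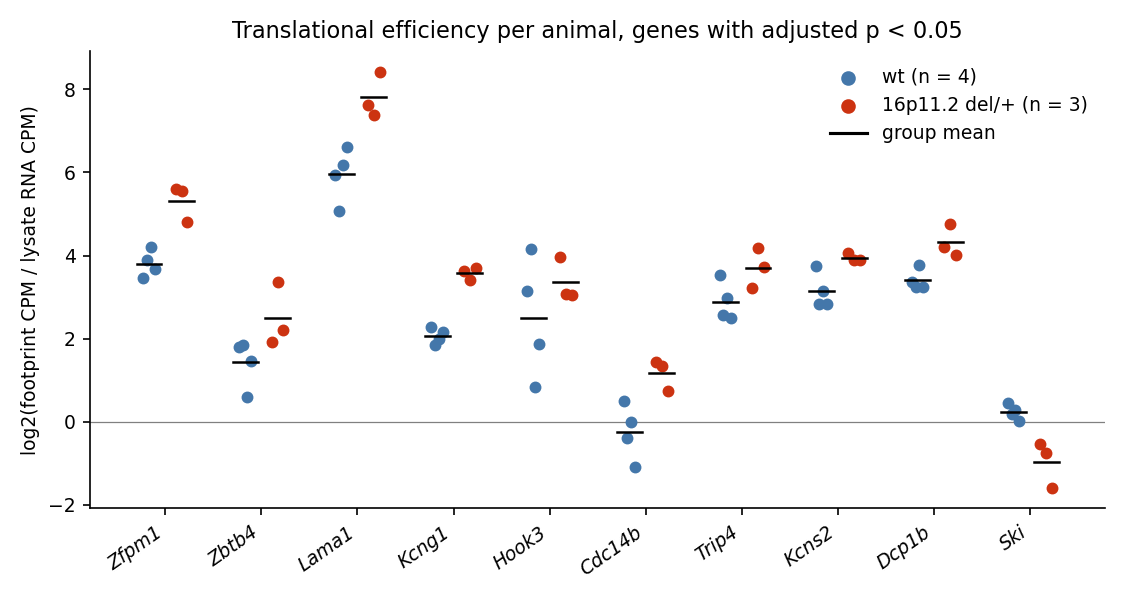
The y axis is the log2 ratio of footprint CPM to lysate RNA CPM, with 1 point per animal (4 wt in blue, 3 del/+ in red) and black lines at the group means, for the 10 genes with an adjusted p under 0.05. Groups overlap for Hook3 and Trip4 and are separate for the other 8, and Ski is the gene in which del/+ lies below wt.

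The per-animal log2 ratios of 8 of the 10 genes did not overlap between the groups, as was the case for 6.22% of all tested genes. These ratios are built from the counts that picked the 10, so the comparison with all genes is no test. In these 8 the two-sided exact permutation p was 0.0571, the smallest that 35 regroupings of 3 against 4 animals allow, so that no gene could pass 0.05 in that test. Zfpm1, Lama1 and Kcng1 kept an adjusted p under 0.05 whichever animal was left out. Ski lost the call without animal RIBO-516 (adjusted p = 0.354) and Zbtb4 without animal RIBO-506. Hook3 lost it without RIBO-504, RIBO-505 or RIBO-517 (highest adjusted p = 1.0), Trip4 without RIBO-499, RIBO-506 or RIBO-517 (highest 0.673) and Cdc14b without RIBO-499, RIBO-504, RIBO-506 or RIBO-517 (highest 0.190). Kcns2 lost it without RIBO-499, RIBO-504, RIBO-505, RIBO-506 or RIBO-517 (highest 0.225), and Dcp1b without RIBO-498, RIBO-499, RIBO-504, RIBO-506 or RIBO-517 (highest 0.619). Without animal RIBO-516 the number of called genes rose to 21, and without animal RIBO-506 it fell to 5. The same numbers called on footprints alone were 2 without animal RIBO-517, 3 without RIBO-516, 4 without RIBO-504 or without RIBO-506, and 13 without RIBO-499. The footprint calls of Lama1 and Kcng1 held whichever animal was left out. That of Zfpm1 held in 5 of these 7 fits, that of Ski in 3 and that of Dcp1b in 1. Their highest edgeR adjusted p was 0.0722, 0.308 and 0.393.

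Most of the genes higher in del/+ had many footprints for their RNA, which is a description and no test, since the ratio is built from the counts that were compared. In 8 of the 9, the mean log2 ratio over all 7 animals was among the highest 10% of tested genes, from the top 0.219% (Lama1) to the top 5.29% (Zbtb4), with Cdc14b at the top 28.3% as the exception. Ski sat at the middle, at the top 49.6%. Genes with many footprints for little RNA were then counted as a class, chosen after the values had been seen: 471 genes (3.13% of those tested) had a mean log2 ratio at least 3 above the median gene, that is at least 8 times its ratio. Their median RNA level was 0.357 CPM, against 13.6 CPM over all tested genes. Of the 9 genes higher in del/+, 6 belonged to this class, 1 of them through its del/+ values. Hook3 had a mean log2 ratio of 2.50 in wt and was not in the class when it was cut on the 4 wt animals, which left 5 of the 9 among 453 genes. With the ratio taken from the 6 animals of the 3g line, none of which enters the comparison, 2 of the 9, Zfpm1 and Lama1, were among the 363 genes of the class (2.41%), and 4, with Dcp1b and Kcns2, were in the highest 10%.

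The footprint level of Lama1 was 343 to 436 CPM in del/+ beside the 1.00 to 1.78 CPM of its RNA. How footprints were counted is not given in the sources used here, and whether fragments not protected by a ribosome, or reads that match several places, are among them was not tested. For genes of such high ratio the value called translational efficiency is therefore a ratio of counts.

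**Figure D2:**
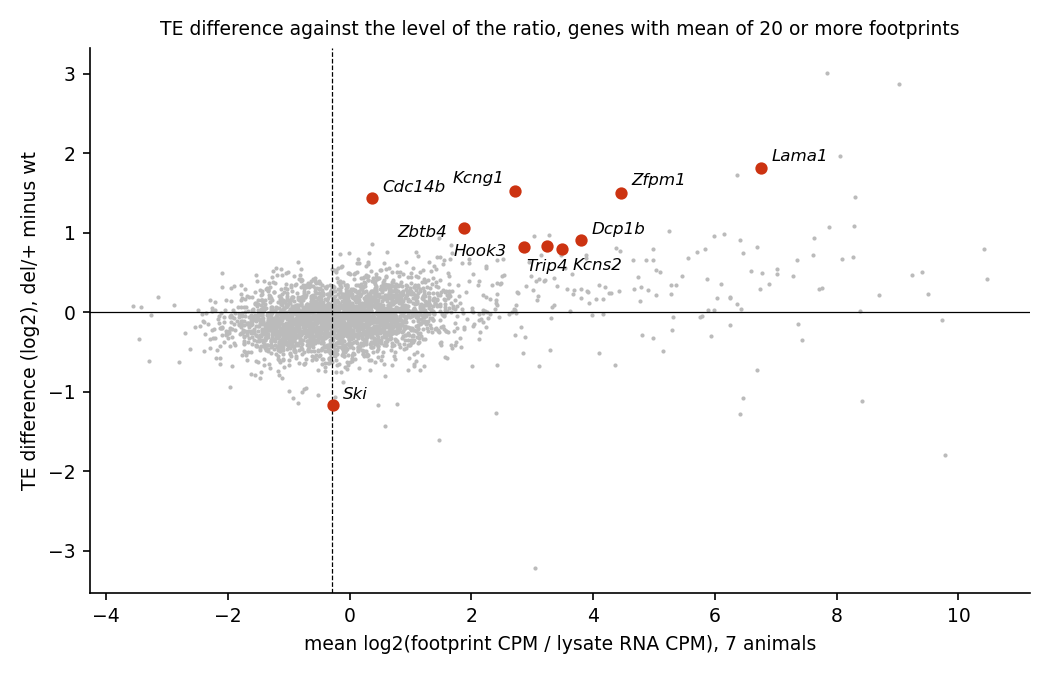
Each point is 1 of 3054 genes with a mean of at least 20 footprints; the x axis is the mean log2 ratio of footprint to RNA CPM over 7 animals, the y axis the log2 difference in translational efficiency, and the dashed line the median ratio of all tested genes. Genes with an adjusted p under 0.05 are in red, and those higher in del/+ lie to the right of the bulk except Cdc14b.

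The 471 high-ratio genes took 13.2%, 11.18%, 9.54% and 8.99% of all footprints in wt animals RIBO-498, RIBO-499, RIBO-505 and RIBO-517, and 15.7%, 14.3% and 11.7% in del/+ animals RIBO-504, RIBO-506 and RIBO-516. The share was lowest in the 2 deepest footprint libraries, those of RIBO-517 and RIBO-505, and highest in RIBO-504, whose library was deeper than those of RIBO-498, RIBO-506 and RIBO-516. The ranges of the groups overlapped through animal RIBO-498. In RNA the same genes held 0.191% to 0.252% of reads in every animal. Their median difference in translational efficiency was 0.27, with 307 higher and 164 lower in del/+, against a median of -0.058 over all genes. For the class cut on the 3g line the median was 0.26, with 227 higher and 136 lower, and for the class cut on the 4 wt animals it was 0.15, with 257 higher and 196 lower. When footprint depth was added as a covariate, 6 genes were called, Zfpm1, Lama1, Kcng1 and Ski of the 10 and also Otx2 and Klhdc7a. With the footprint share of the high-ratio genes as the covariate instead, 5 were called, Zfpm1, Lama1 and Ski of the 10 and also Wrn and Gm20458, while Kcng1 had an adjusted p of 0.0864. Both covariates, and the naming of the genes outside the 10, were chosen after the values had been seen, and the part that depth and this share have in the other calls was not tested beyond these fits.

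**Figure D3:**
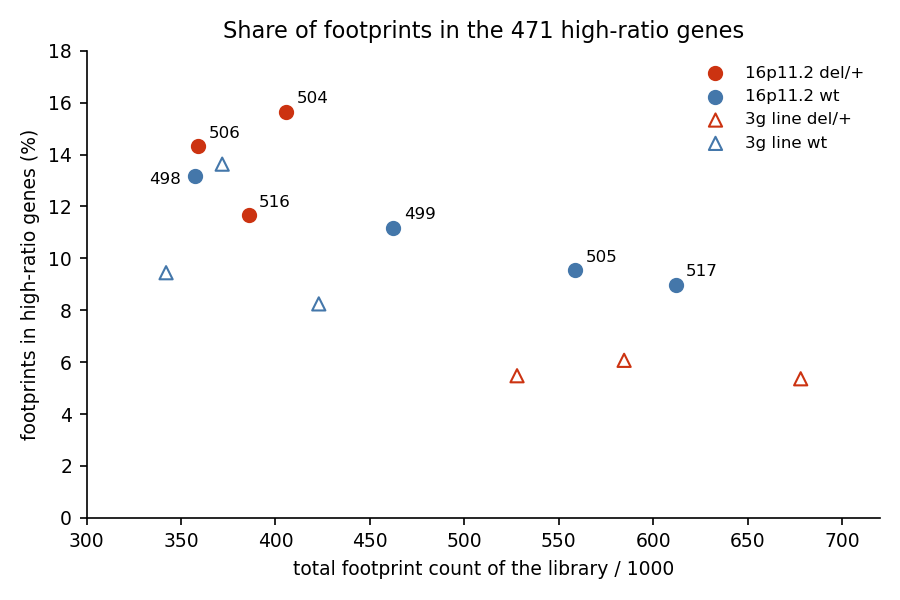
The x axis is the total footprint count of each library divided by 1000 and the y axis the percentage of footprints in the 471 high-ratio genes, for the 7 animals of the 16p11.2 line (filled circles, numbered) and the 6 of the 3g line (open triangles), wt in blue and del/+ in red. Shares run from 8.99% to 15.7% in the 16p11.2 line, with both the deepest libraries and the lowest shares in wt animals RIBO-505 and RIBO-517.

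The deleted interval on mouse chromosome 7 was the place where RNA and footprints both moved. Of its 27 genes 25 were in the tables, and 4930451I11Rik and Zg16 were not analysed here. Lysate RNA was called lower in del/+ for 13 of 21 tested, where 0.126% of all genes were called lower. Every del/+ animal lay below every wt animal in RNA for 19 of the 21, against 2.24% of genes. For footprints the same held in 10 of 10 tested genes, against 4.43%, and 2 were called lower, Aldoa and Maz, against 0.0503%. The 2 footprint calls did not hold for every set of animals: without RIBO-504, RIBO-505, RIBO-516 or RIBO-517 none of the interval was called, and without RIBO-499 there were 4. RNA calls in the interval fell to 8 without animal RIBO-506.

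None of the 22 interval genes tested for translational efficiency was called at an adjusted p under 0.05, in the fit with the animal as a block or in the alternatives that kept this threshold. Without adjustment edgeR put 2 of the 22 under 0.05, both higher in del/+, Doc2a and Hirip3, where 5.59% of all tested genes were under it in either direction and 1.94% with a higher ratio in del/+. In 9 of them the mean footprint count reached 20, and in these the median difference was -1.04 in RNA, -1.09 in footprints and 0.012 in translational efficiency. Over the 9, the RNA difference ranged from -1.38 to -0.89 and the footprint difference from -1.36 to -0.68. Their translational efficiency differed by between -0.55 and 0.34, 5 with a positive and 4 with a negative sign, and all 9 intervals held 0. The half-width of those intervals ran from 0.44 to 0.72. The intervals are not adjusted for the number of genes tested, so a call at an adjusted p under 0.05 needed a difference larger than the half-width. The smallest change of the ratio that could be called at this depth was not tested.

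Maz, a zinc finger transcription factor, had footprints at 140, 177, 164 and 155 CPM in wt and 66.1, 66.5 and 82.1 CPM in del/+. Its RNA was at 119, 116, 108 and 124 CPM in wt and 59.9, 46.7 and 50.0 CPM in del/+. Both measures separated the groups while the ratio did not, and the difference in translational efficiency was 0.012 (95% interval -0.45 to 0.47, adjusted p = 1.0).

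Taok2, a kinase of dendrite and synapse development, had footprints at 97.3, 114, 103 and 128 CPM in wt and 55.0, 51.0 and 56.3 CPM in del/+. RNA of Taok2 was at 101, 116, 111 and 103 CPM in wt and 61.0, 49.2 and 49.3 CPM in del/+. The groups were apart in each measure, and translational efficiency differed by -0.016 (interval -0.52 to 0.49). Prrt2, a presynaptic regulator of release, differed by 0.053 in the ratio (interval -0.46 to 0.57), and Fam57b, also named Tlcd3b and involved in ceramide synthesis, by 0.055 (interval -0.55 to 0.66). In Fam57b animal RIBO-506 held 28 footprints, against 8 and 10 in the other two del/+ animals, and without it the ratio differed by -0.68.

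Sez6l2, a neuronal membrane protein, was the covered member with the highest ratio difference, 0.34 (interval -0.097 to 0.78, adjusted p = 0.938). Its RNA was at 72.4, 56.8, 73.0 and 72.1 CPM in wt and 24.9, 30.9 and 24.3 CPM in del/+, a difference of -1.38, while footprints were at 188, 167, 239 and 274 CPM in wt and 117, 106 and 96.2 CPM in del/+, a difference of -0.97. Kctd13, a substrate adaptor of a ubiquitin ligase, was at the other end, with -0.55 (interval -1.28 to 0.17, adjusted p = 0.945). It had 29 to 34 footprints in wt and 8 to 11 in del/+. Aldoa, the glycolytic enzyme aldolase A, had 53 to 145 footprints in wt and 27 to 35 in del/+, and its ratio differed by -0.32 (interval -0.77 to 0.13). Mapk3, the kinase ERK1, had a ratio difference of -0.26 (interval -0.87 to 0.36), and Ypel3 one of 0.21 (interval -0.40 to 0.81).

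**Figure D4:**
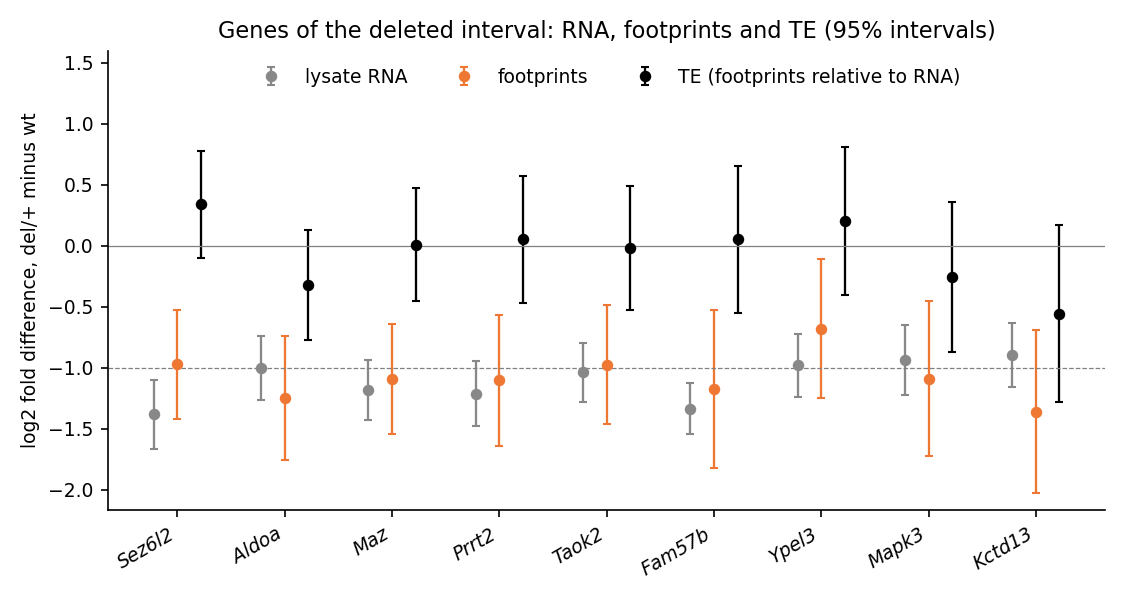
For the 9 genes of the deleted interval with a mean of at least 20 footprints, ordered by footprint count, points give the log2 difference of del/+ from wt in lysate RNA (grey), footprints (orange) and translational efficiency (black), with 95% intervals, and the dashed line marks a halving. RNA and footprints lie around the dashed line in every gene and the intervals of translational efficiency all cross 0.

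The other tested genes of the interval had too few footprints for a firm ratio. The per-animal log2 ratios of 3 interval genes did not overlap between the groups, Hirip3, Doc2a and Kif22, with a background of 6.22%. Hirip3, a histone-binding protein, had 10, 6, 5 and 10 footprints in wt and 6, 12 and 8 in del/+, while its RNA fell from 23.9 to 25.8 CPM in wt to 11.6 to 14.7 CPM in del/+. Footprints overlapped and RNA did not, and the ratio differed by 1.36 (SE 0.494), which did not pass (adjusted p = 0.591). Doc2a, a calcium sensor of spontaneous release, had 0, 0, 1 and 6 footprints in wt and 3, 3 and 6 in del/+ (difference 3.08, SE 1.05, adjusted p = 0.483). Kif22, a kinesin, had 2, 3, 4 and 2 footprints in wt and none in del/+; with 3 counts as the limit that a count of 0 allows, no fold is given. The 6 genes at the edges of the interval included 5 tested ones, none called for translational efficiency. RNA of 3 of these, Bola2, Cd2bp2 and Tbc1d10b, was called lower, with differences of -0.94, -1.09 and -1.17. Their ratio differences were -0.28, 0.36 and 0.18 with 2 to 28 footprints per library. Slx1b and Sept1 were not called in RNA and stood at -0.98 and -0.195. Whether the deletion takes in these edge genes was not tested.

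Outside the interval and its edges, 3 genes were called in RNA. Ryr1, the calcium release channel first known from skeletal muscle, fell by 1.18 in RNA (adjusted p = 0.0342), from 22.9 to 41.0 CPM in wt to 14.1 to 18.1 CPM in del/+. Its footprints were at 84.4 to 136 CPM in wt and 58.6 to 102 CPM in del/+, which overlapped, and its log2 ratio was 1.597, 1.75, 1.87 and 1.65 in wt and 2.37, 2.48 and 2.04 in del/+. The groups did not overlap in the ratio, yet the difference of 0.61 (SE 0.273) did not pass (adjusted p = 0.816). Gm42742, a predicted gene, fell by 1.14 in RNA (adjusted p = 0.0392) with a ratio difference of -0.0056 (SE 0.418). Tyr, which encodes the melanin enzyme tyrosinase, rose by 3.77 in RNA (adjusted p = 0.00718), from 0.0556 to 0.275 CPM in wt to 1.69 to 2.81 CPM in del/+, and had 4 footprints over all 7 libraries.

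The genes of the translation apparatus came next. Many of their mRNAs begin with a terminal oligopyrimidine (TOP) motif, a C followed by a run of C and T at the very start of the transcript, through which growth signalling by mTOR holds back or releases their translation. A motif of C followed by at least 4 bases that are each C or T, read on the transcribed strand at the annotated start, was found for 14 of the 58 ribosomal protein genes (24.1%) with an entry in the RefSeq start-site table (GRCm38.p6), against 3.01% of all 27025 genes in it. The 4 ribosomal protein genes with the motif and the highest wt footprint level are shown because they display the element that names this group. Genes of a chromosome not considered for display were left out of that choice. Rps21 has 2 listed starts, 1 of them with the motif, and that start is shown. Each line gives 30 bases, from 10 before the start, with the pyrimidine run in capitals.
Rps21 (chr2:180257369-180257398, plus strand): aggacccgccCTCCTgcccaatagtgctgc
Rplp2 (chr7:141447641-141447670, plus strand): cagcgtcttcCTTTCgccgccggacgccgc
Rpl38 (chr11:114668570-114668599, plus strand): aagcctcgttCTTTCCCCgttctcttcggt
Rpl28 (chr7:4792955-4792984, plus strand): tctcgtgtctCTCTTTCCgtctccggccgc
These coordinates belong to GRCm38.p6 and not to mm39, the build named for the counts. An annotated start a few bases from the one in use would hide the motif, and its absence from a window says nothing about a gene.

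Ribosomal protein genes had a low ratio in every animal. The median log2 ratio over the 79 genes was -2.09, -2.29, -2.17 and -2.28 in wt animals RIBO-498, RIBO-499, RIBO-505 and RIBO-517 and -2.43, -2.19 and -2.74 in del/+ animals RIBO-504, RIBO-506 and RIBO-516, where the median of all tested genes was between -0.28 and -0.15. Over the 7 animals 78 of the 79 lay below the median gene. The median was -2.35 in the 14 genes with the motif and -2.37 in the 44 without it. Between the genotypes none of the 79 was called, 36 were higher and 43 lower in del/+, and the median difference was -0.076, close to the -0.058 of all genes. Under total-count scaling the median was 0.033, while the median of all genes was 0.065. With footprint depth as a covariate 28 were higher and 51 lower (median -0.18), and with the share of the high-ratio genes as a covariate 25 were higher and 54 lower (median -0.31), while the median of all genes was -0.0305 and -0.058 in these fits.

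Of the genes shown above, Rps21 had a ratio difference of -0.27 (SE 0.275) from 14 to 38 footprints per library and Rpl28 one of -0.68 (SE 0.409) from 4 to 17. The 2 ribosomal protein genes with the most footprints were Rplp1, a stalk protein, with a difference of 0.26 (SE 0.187), and Rpl13a with 0.0054 (SE 0.235). Neither passed. Only 8 ribosomal protein genes reached a mean of 20 footprints.

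The 15 other genes of the TOP class, elongation factors and their kind, were also low, with a median of -1.79 over genes in the mean log2 ratio and all 15 below the median gene. None was called between the genotypes. In 12 the fitted difference was below 0 and in 3 above, with a median of -0.29 that moved to between -0.25 and -0.17 under the other scalings. Eef2, the translocation factor, had log2 ratios of -0.83, -1.18, -1.30 and -1.21 in wt and -1.55, -1.51 and -1.33 in del/+. The groups did not overlap, and the difference of -0.33 (SE 0.192) had an adjusted p of 0.920. Tpt1, a growth-related protein, differed by -0.33 (SE 0.190, adjusted p = 0.920).

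Among 27 regulators of translation, which include the eIF4F and eIF2 components, their kinases and the FMRP complex, none was called, 16 were higher and 11 lower, and the median difference was 0.058. Under total-count scaling 21 were higher and 6 lower, with a median of 0.18, while the median of all genes was 0.065. Eif4a2, an RNA helicase of the cap complex, had the difference of -0.53 (SE 0.197, adjusted p = 0.641), and Cyfip2, a partner of FMRP, one of -0.023 (SE 0.198). A further list held 13 genes taken as controlled through upstream open reading frames, only some of them in response to phosphorylation of eIF2. None of the 13 was called, and 9 were higher and 4 lower with a median of 0.25. The 2 with the most footprints were Atf4, the stress-response transcription factor, at 0.26 (SE 0.280), and Ppp1r15b, a phosphatase subunit that reverses the phosphorylation, at 0.24 (SE 0.262). Only 4 of the 13 reached a mean of 20 footprints, and over these the median was -0.0074 and the lowest difference -0.49. With the share of the high-ratio genes as a covariate 7 of the 13 were higher and 6 lower, with a median of 0.072.

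Neuronal signalling genes gave no call either. In the cascade that leads to ERK, which contains Mapk3 of the deleted interval at its end but was counted here without it, 7 of 19 genes were higher and 12 lower, with a median of -0.11 that changed sign under total-count scaling (0.026). Over all tested genes 6824 were higher and 8247 lower, and their median moved from -0.058 to 0.065 under that scaling. A list can therefore change sign through this common shift. Braf, a kinase at the top of the cascade, had footprints at 79.2, 110, 131 and 91.2 CPM in wt and 57.2, 70.9 and 49.3 CPM in del/+. The groups were apart, RNA was not, and the difference in translational efficiency of -0.78 (SE 0.238) had an adjusted p of 0.304. Of 13 immediate early genes, 6 were higher and 7 lower with a median of -0.073 that was 0.057 under total-count scaling, among them Egr1 at -0.073 (SE 0.196) and Arc at -0.28 (SE 0.207).

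In the 19 spiny neuron markers the fitted difference was above 0 in 4 and below 0 in 15. The median of -0.13 was -0.0046 under total-count scaling, while that of all genes moved from -0.058 to 0.065. Gnal, the G protein alpha subunit that couples dopamine and adenosine receptors to adenylyl cyclase, had 410, 438, 681 and 681 footprints in wt and 727, 857 and 544 in del/+. Its log2 ratio overlapped between the groups, and the difference of 0.60 (SE 0.171) did not pass (adjusted p = 0.207). Left without animal RIBO-505 or without animal RIBO-516 it did pass, at 0.77 (adjusted p = 0.0219) and 0.90 (adjusted p = 0.00797). Adcy5, the cyclase that Gnal acts on, differed by -0.20 (SE 0.172). In 19 postsynaptic and dendritic genes 4 were above 0 and 15 below, with a median of -0.16 that was between -0.11 and -0.039 under the other scalings. Shank1, a scaffold protein, differed by -0.18 (SE 0.172) and Camk2a, the plasticity kinase, by -0.14 (SE 0.174). None of either list was called.

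Mitochondrial energy genes are split between genomes and translated by different ribosomes. All 13 protein-coding genes of the mitochondrion had a fitted difference below 0, from -0.38 to -0.063, and none was called. Under total-count scaling and with RLE size factors 12 of the 13 stayed below 0. Mt-Co1, a subunit of cytochrome oxidase, differed by -0.35 (SE 0.187, adjusted p = 0.897) and mt-Cytb by -0.22 (SE 0.186). These 13 genes together make up the mitochondrial share of a library, so their signs are not 13 separate results. The part of that share in their differences was not tested. Of 70 nuclear genes for the respiratory complexes none was called, 57 were below 0 and 13 above. The median of -0.16 was -0.032 under total-count scaling, while that of all genes moved from -0.058 to 0.065. Cox8a differed by -0.25 (SE 0.186) and Atp5b by -0.39 (SE 0.201).

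Markers of other cell types were measured because they could shift both assays. In RNA the summed level of every such list overlapped between the groups: 4007 to 5661 CPM in wt and 4411 to 5064 CPM in del/+ for oligodendrocytes, 4212 to 5066 and 4386 to 4925 for astrocytes, 126 to 160 and 128 to 164 for microglia, and 343 to 764 and 298 to 564 for cortical neurons. In footprints the astrocyte sum was 2419 to 3142 CPM in wt and 2125 to 2297 CPM in del/+, apart. Those of the other cell types overlapped, for microglia with 217 to 308 CPM in wt and 155 to 284 CPM in del/+. Such a gap was not particular to astrocytes. Outside the interval, footprint sums were also lower and apart for postsynaptic and dendritic genes, 7647 to 8795 CPM in wt and 6867 to 7150 CPM in del/+. The same held for the ERK cascade (975 to 1044 and 874 to 924) and the other TOP genes (945 to 1052 and 882 to 931). No list was apart with del/+ higher. Slc1a2, the main glutamate transporter of astrocytes, made up most of the astrocyte footprint sum, with 1983 to 2587 CPM in wt and 1592 to 1771 CPM in del/+. In the ratio Slc1a2 differed by -0.30 (SE 0.176, adjusted p = 0.920) and Aldoc by 0.12 (SE 0.205). Of the 8 astrocyte markers 3 were above 0 and 5 below in the ratio. With footprint depth as a covariate 6 were above and 2 below.

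In microglia the median log2 ratio over 10 markers was 0.99, 1.03, 1.28 and 0.69 in the wt animals and 0.072, 0.10 and 0.089 in the del/+ animals. Only 2 of the 10 reached a mean of 20 footprints. Of the 10, 8 were below 0 in their fitted difference and 2 above, with a median of -0.62, against -0.058 for all genes, and from -0.57 to -0.49 under the other scalings. The median was -0.47 with footprint depth as a covariate and -0.41 with the share of the high-ratio genes as a covariate. None was called. Csf1r, the receptor that microglia need to survive, had a mean of at least 20 footprints and a difference of -0.56 (SE 0.330, adjusted p = 0.921).

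The other lists were quieter or sparse. Mbp, a main myelin protein, differed by -0.12 (SE 0.176), and the cortical genes Slc17a7 and Cux2 by -0.056 (SE 0.186) and -0.14 (SE 0.347). Haemoglobin genes Hba-a1 and Hba-a2, near-identical copies between which reads cannot be assigned with certainty, differed by 0.17 (SE 0.230) and 0.23 (SE 0.229). The 6 endothelial markers were all under a mean of 20 footprints. Of 5 choroid plexus markers 1, Kcnj13, had no footprint in any animal. The choroid marker Ttr had 2, 9, 13 and 2 footprints in wt and 0, 0 and 1 in del/+, beside RNA of 0 to 9.71 CPM in wt and 0 to 5.85 CPM in del/+. The part of these cells in the ratios was not tested.

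The same contrast in the 3g line gave a test of whether the genotype effect differed between the lines, in 1 fit over 26 libraries with the animal as a block. It called 45 of 16337 genes (0.275%), 31 of them with the higher difference in the 16p11.2 line, and 42 genes (0.257%) were called within the 3g line. Of the 10 genes called in the 16p11.2 line, 7 differed between the lines: Zfpm1, Kcng1, Hook3, Trip4, Kcns2, Dcp1b and Ski. The 10 were picked on the 16p11.2 counts that also enter this contrast, so the 7 are no separate support. Within the 3g line itself 1 of the 10 was called. The 2 lines share no animals, and their libraries were tested in a common fit.

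Dcp1b was called in both lines with opposite signs, 0.91 in the 16p11.2 line and -1.39 in the 3g line (SE 0.318, adjusted p = 0.0108). For Zfpm1 the difference was 1.49 against -0.49 (SE 0.236, adjusted p = 0.697 in the 3g line), and for Kcng1 1.52 against -0.63 (SE 0.339, adjusted p = 0.786). Ski, lower in 16p11.2 del/+, stood at 0.19 (SE 0.236) in the 3g line. Lama1 was at 0.30 (SE 0.344) there, and the difference between the lines, 1.55, did not pass (adjusted p = 0.214). Zbtb4 and Cdc14b did not differ between the lines at this threshold either (adjusted p = 0.124 and 0.882).

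Braf, not called in the 16p11.2 line, did differ between the lines, by -1.43 (SE 0.353, adjusted p = 0.0341), with 0.68 (SE 0.246) in the 3g line. In the 3g line the del/+ footprint libraries were the deeper ones, with 527917 to 678130 counts against 342052 to 422918 in wt. The high-ratio genes took 5.36% to 6.07% of del/+ footprints and 8.25% to 13.6% of wt footprints there, the reverse of the order in the 16p11.2 line, and their median difference in translational efficiency was -0.58. The part of these values in the differences between the lines was not tested.

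**Figure D5:**
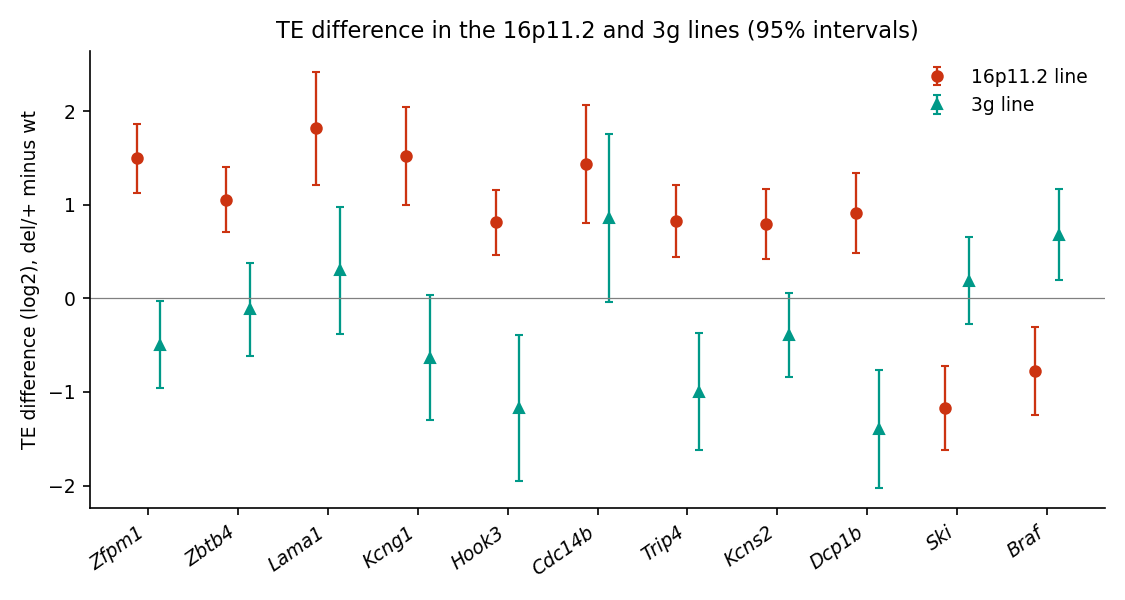
The y axis is the log2 difference in translational efficiency of del/+ from wt, with 95% intervals, for the 10 called genes and Braf; red circles are the 16p11.2 line fitted on its own 14 libraries and green triangles the 3g line fitted together with it on 26. In 8 of the 10 called genes the estimates have opposite signs, and in Lama1 and Cdc14b the same sign.

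None of the 30 tested genes of the interval and its edges differed between the lines. For the 3 genes mutated in the 3g line, the ratio differed by -0.016 in the 16p11.2 line and 0.040 in the 3g line for Taok2, and by 0.34 and -0.24 for Sez6l2. The difference between the lines was 0.60 for Sez6l2 (95% interval -0.018 to 1.23, adjusted p = 0.722). Mvp, the major vault protein, had 0 to 5 footprints per library in the 16p11.2 line, too few for a ratio.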

How the data were processed

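Footprint and lysate RNA libraries of striatum were made from the same lysate, which is what pairs them by animal. The deposited counts are raw whole-number counts per gene made by the authors; Bowtie2 and mm39 are named in the submitters' processing notes, and the counter, annotation and footprint size selection are not given in the sources used here. Tables were joined on gene ID. edgeR 4.0.16 (R 4.3.3) fitted animal, assay and genotype by assay with quasi-likelihood tests after filterByExpr and TMM over 14 libraries, with Benjamini-Hochberg adjustment over all tested genes. Log ratios used a prior count of 2. Deviations of an animal's footprints from its group mean correlated best with its own RNA in 7 of 7 animals (r 0.171 to 0.412 over 3054 genes). On counts simulated for this comparison (15157 genes tested) the edgeR fit called 95 of 100 genes changed 4-fold, 33 of 100 changed 2-fold and 5 unchanged genes. These numbers hold for the simulated counts and their settings only. Real footprints can spread widely between animals of a group, as for Hook3 with 208 to 1458 in wt. The rates of recovery and of false calls in the real libraries were not tested. Named genes were every called gene, every interval gene, the 2 members of each list with most wt footprints, and RNA calls elsewhere. A few genes that this rule names are not reported here. Members and lists were chosen with earlier results of these data known. The study's methods describe littermates, with no litter given for an animal. DESeq2 1.42.0, limma 3.58.1, other scalings and filters, and each animal left out were alternatives. The bulk RNA-seq libraries were not used here.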

Additional observations from a re-analysis of the deposited data

Results flagged for a closer look

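Several results named in the report had a genotype effect on translational efficiency that differed between the 16p11.2 and 3g lines by edgeR's test of that difference over 26 libraries. The 16p11.2 effect minus the 3g effect, on the log2 scale, was 2.33 for Dcp1b (adjusted p = 0.000102), 2.02 for Zfpm1 (adjusted p = 1.81e-05), 2.18 for Kcng1 (adjusted p = 0.00183), 2.02 for Hook3 (adjusted p = 0.0341), 1.85 for Trip4 (adjusted p = 0.00909) and 1.21 for Kcns2 (adjusted p = 0.0487). It was -1.34 for Ski (adjusted p = 0.0450) and -1.43 for Braf (adjusted p = 0.0341). All of these except Braf were picked as called on the 16p11.2 counts that also enter this test.

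Among the 4 wt animals a single one stood apart from the others in the log2 ratio of 2 of the 53 genes screened. For Tpt1 RIBO-498 was at -0.51 while the others lay between -0.93 and -0.86. For Hba-a2 RIBO-517 was at 0.43 while the others lay between -0.49 and -0.33. Chance flags about 1 in 20 such groups.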

How the results depend on the processing

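The 10 calls in translational efficiency became 1 with no replicate block (Kcng1), 4 with DESeq2 (Zfpm1, Lama1, Kcng1 and Znfx1, the last named after its value was seen), 0 with limma on the paired log2 ratios (852 at an unadjusted p under 0.05), 17 with total counts only, 5 among genes with a mean of 20 or more footprints, 17 at an adjusted p under 0.10 and 842 at an unadjusted p under 0.05. They were 6 with footprint depth as a covariate, 5 with the footprint share of high-ratio genes as a covariate and 5 without high-ratio genes, all 3 added after the data were seen. Leaving out 1 animal gave 5 to 21. The limit of 20 footprints removed none of the 10, since each had a mean above it. In the fit of covered genes only, Zfpm1, Lama1, Kcng1 and Ski stayed under 0.05 after adjustment. Zbtb4, Hook3, Cdc14b, Trip4, Kcns2 and Dcp1b did not. RLE, TMM within each assay and total-count scaling shared all 10 genes. The Hook3 difference reversed to -0.31 with the share covariate. The 7 footprint calls became 14 with DESeq2, 43 without a filter, 19 at an adjusted p under 0.10, 367 unadjusted, and 2 to 13 with 1 animal left out. The 19 RNA calls became 31 with DESeq2, 632 unadjusted, and 10 to 19 with 1 animal left out. The 45 calls between the lines became 17 with DESeq2, 1 with no replicate block and 1160 unadjusted. The fit reported kept the animal as a block, since the lysates were shared by the 2 assays. A fit by limma on the paired log2 ratios kept the pairing too and called 0 genes, with Zfpm1 and Kcng1 at adjusted p = 0.262. Pairing by itself therefore does not favour the reported fit. The fitted SE of Hook3 was 0.177, while its per-animal log2 ratios had SDs of 1.45 in wt and 0.52 in del/+. For such genes the fitted SE and adjusted p do not measure the spread between animals. The interval median of 0.012 ranged from -0.069 to 0.14 over all alternatives, within the spread between animals. Among 43 uncalled genes named, 78 of 771 alternative values had the other sign, none for a gene with a difference beyond 0.32 in size. The median over all genes was -0.058 in the reported fit and 0.065 with total counts only. Footprint depth limits the ratio. The cause of these changes was not tested.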
